A study of Homo sapiens with 20 samples.

Results

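Transcript levels were compared between HEK293T cells given small interfering RNA (siRNA) against HUWE1, the set labelled set 3, and cells given non-targeting siRNA, the controls that set 3 shares with set 2. These 2 groups of 4 libraries are 8 of the 20 in the study, and their columns were taken by label. HEK293T cells derive from human embryonic kidney and express the large T antigen of SV40. Each of the 5 groups of the study holds 4 libraries, which the study's design text calls biological replicates: non-targeting and HUWE1 siRNA in set 1, HUWE1 siRNA in set 2, HUWE1 siRNA in set 3, and the non-targeting siRNA used for sets 2 and 3. All are HEK293T cells with no other genotype or agent on the labels, and neither the siRNA sequences, the difference between the sets, the dose nor the time after transfection is given in the sources used here. Cells were homogenised in Trizol and stranded mRNA libraries were sequenced on an Illumina NovaSeq instrument, per the labels' protocols. In the table of sets 2 and 3, 15860 of 45372 gene symbols had a TPM (transcript abundance corrected for length and summing to a fixed total in each library) of at least 1 in at least 4 of the 12 libraries and were tested. At that limit 181 genes passed with exactly 4 libraries and 188 missed it with 3. Of the genes that passed, 3 did so through the set 3 libraries alone, of which 1 was called higher, and 1 through the controls alone.

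HUWE1 encodes a very large cytoplasmic and nuclear ubiquitin ligase of the HECT family, which takes ubiquitin from an E2 enzyme onto its own catalytic cysteine before passing it to a substrate. Proteins reported as its substrates include MYC, p53, MCL1, CDC6, histones and DDIT4, so it has been studied for growth control, apoptosis, replication and proteotoxic stress. A ligase acts on proteins, and RNA sequencing measures only the transcripts that follow.

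The libraries of set 3 were more alike than those of the controls. Across genes, the lowest correlation of log2(TPM + 1) between libraries of a group was 0.994 in set 3 and 0.980 in the controls, a description in which genes are not independent. The median standard deviation of a gene over its 4 libraries was 0.0757 on the log2 scale in set 3 and 0.13 in the controls. Control replicates 1 and 4 stood apart at opposite ends: replicate 1 was the control farthest from the control median in 39.8% of genes and replicate 4 in 40.0%. Control replicate 4 was also the control nearest to the set 3 mean in 49.1% of all genes tested and in 77.9% of those called, and replicate 1 was the farthest in 58.4% and 68.2%. Mitochondrially encoded transcripts made up 16.6% to 18.3% of TPM in the controls and 15.5% to 16.4% in set 3. Histone gene transcripts summed to 458 TPM in control replicate 1, 183 to 252 TPM in the other controls and 157 to 172 TPM in set 3. The part of these differences in the results was not tested. The number of calls against the controls and the counts per gene list were therefore also computed without control replicates 1 and 4. The number of stable genes (defined below), of genes without overlap between groups and of calls between HUWE1 siRNA sets were not recomputed in that way. Values of each library sum to the same total, so the depth of sequencing is not known and values carry no counting interval.

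The label HEK293T was checked against genes this line is known for. All 9 of them, among them the neurofilament genes NEFL and NEFM, the intermediate filament genes VIM, KRT8 and KRT18 and the kidney development genes PAX2 and LHX1, had a mean of at least 1 TPM. Their summed level was 1051 to 1242 TPM in the controls and 1192 to 1284 TPM in set 3. NEFM and NEFL were lower in set 3 (log2 fold changes of -0.36 and -0.24), and the other 7 were not called. Markers of other cells were mostly low: 6 of 9 fibroblast, 5 of 7 blood, 4 of 4 endothelial, 3 of 4 hepatocyte and 3 of 3 skin epithelium genes lay below 1 TPM in all 8 libraries, but 0 of 4 skeletal muscle genes did. The muscle genes MYH3, CKM and ACTA1 had a mean of at least 1 TPM, and the 4 summed to 5.45 to 7.31 TPM in the controls and 5.67 to 6 TPM in set 3. Of the markers of these 6 other cell types 0 were called. In bulk RNA, fewer cells of a kind and less RNA per cell cannot be told apart.

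HUWE1 itself (GRCh38 chromosome X, 53532096 to 53686729, minus strand, a protein-coding gene) was measured at 162, 167, 166 and 159 TPM in controls 1 to 4 and 79.9, 89.7, 80.3 and 89.3 TPM in set 3 replicates 1 to 4. All 4 set 3 libraries lay far below all 4 controls, at 51.9% of the control mean. The control mean was 163.3 ± 3.49 TPM and the set 3 mean 84.8 ± 5.42 TPM (SD, n = 4 each). The log2 fold change was -0.94 ± 0.045 (SE; limma adjusted p = 8.17e-07), and the two-sided exact permutation test of the 8 values gave p = 0.0286, the smallest that 70 splits allow.

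Beyond HUWE1, changes were many and small. Limma called 1839 of the 15860 genes (11.6%) at a Benjamini-Hochberg adjusted p under 0.05, 1181 higher (7.45%) and 658 lower (4.15%) in set 3. A gene called higher or lower in this fit is said to have risen or fallen. The median size of a called change was 0.28 on the log2(TPM + 1) scale, a scale on which changes of low genes are understated. Only 104 higher and 80 lower genes reached 0.5, and 2 and 2 reached 1. The median change of all genes tested was 0.01. For 2729 genes (17.2%) the 4 values of set 3 and the 4 control values did not overlap, with 11.2% of all genes higher and 6.03% lower.

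**Figure D1:**
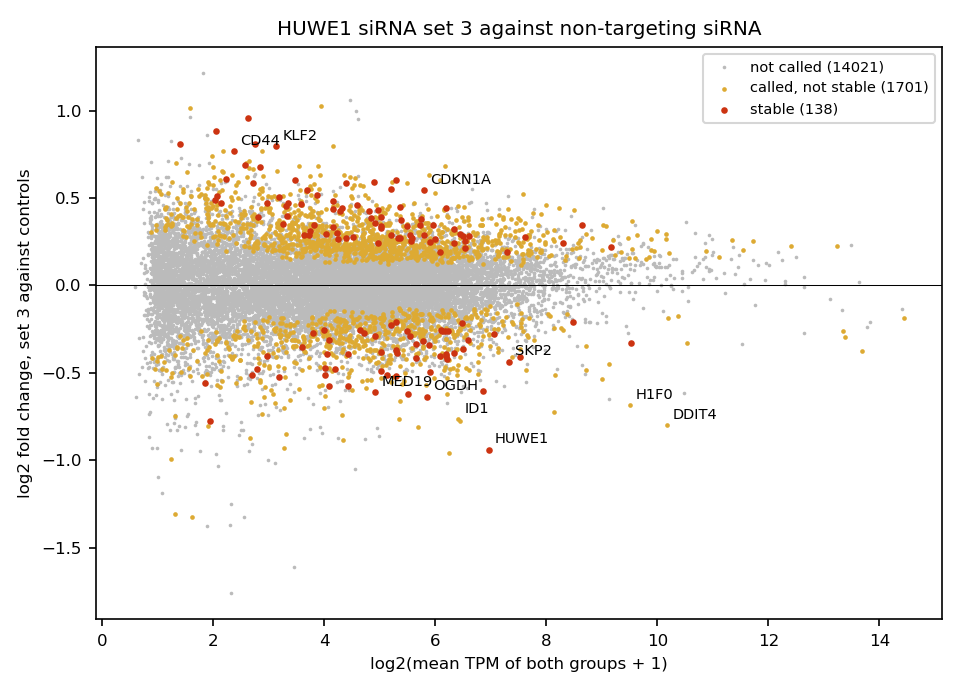
Each point is 1 of the 15860 genes tested, with its mean level over both groups on the x axis (log2 of TPM + 1) and its log2 fold change in set 3 against the controls on the y axis. Called genes (orange) lie mostly within 0.5 of zero, and the 138 stable genes (red) include HUWE1 at -0.94, KLF2, CD44 and CDKN1A above zero and OGDH, MED19 and SKP2 below.

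The number of calls moved widely with single libraries. It was 5874 without control replicate 4 and 162 without set 3 replicate 3, and 340 when only the 8 libraries compared were fitted. It was 3226 without control replicates 1 and 4, which leaves 2 controls. The share of called genes that were higher was 64.2%, but 48.9% after median-of-ratios scaling, 52.4% after quantile normalization and 44.3% when mitochondrially encoded genes were taken out before TPM was recomputed. No such scaling moved the median of all genes by more than 0.1.

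A gene is called stable here if it was called in the same direction in all 10 fits (the 12 libraries of the table, the 8 libraries compared, and 8 fits that each left out 1 of them) and if its 4 and 4 values did not overlap. This held for 138 genes (0.87% of those tested), 81 higher and 57 lower with HUWE1 among them. Absence of overlap, where given below for a stable gene, is thus part of the definition. Higher changes ran from 0.19 to 0.96 with a median of 0.38, and lower changes other than HUWE1 from 0.21 to 0.78 in size with a median of 0.39. Of the 138, 131 are protein-coding and 5 are long noncoding RNAs, and 2 symbols were not found in GENCODE release 29. The split depended on scaling: 67 higher and 99 lower after median-of-ratios scaling, 76 and 104 after quantile normalization, and 51 and 76 without mitochondrially encoded genes. All 4 scalings together kept 95 of the genes, 45 higher and 50 lower. Control replicate 4 was the control nearest to set 3 in 74.6% of stable genes.

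**Figure D2:**
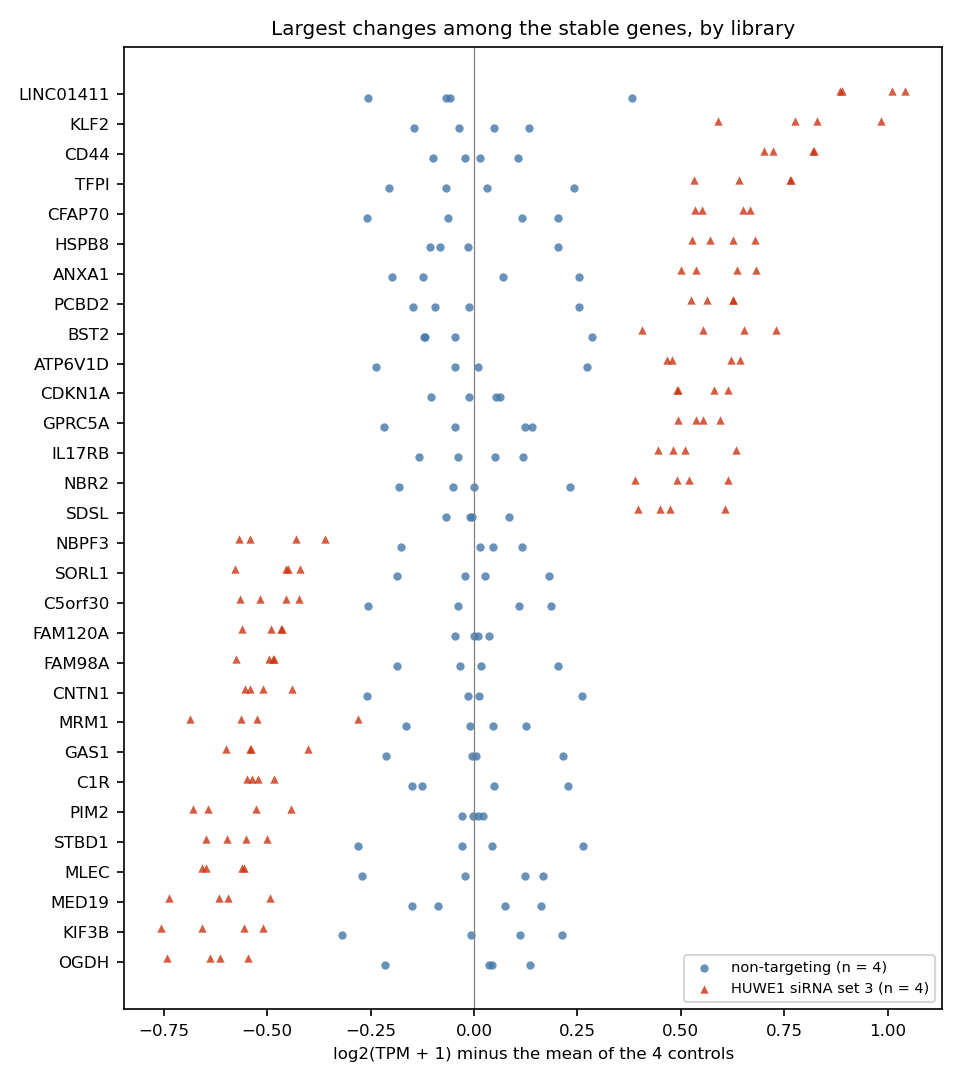
For each of the 15 largest increases and 15 largest decreases among the stable genes with a mean of at least 5 TPM in a group, points give log2(TPM + 1) of each library minus the mean of the 4 controls, with controls as circles and set 3 as triangles. In each gene all 4 triangles lie on the same side of all 4 circles, which the definition of a stable gene requires.

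The stable genes that rose included a transcription factor, a cell cycle inhibitor and a noncoding RNA. KLF2, a zinc finger transcription factor best known from quiescent T cells and endothelium (GRCh38 chromosome 19, 16324817 to 16327874, plus strand), stood at 5.61, 5.23, 4.79 and 6.02 TPM in the controls and 10.4, 9.96, 11.7 and 8.63 TPM in set 3. Every set 3 library exceeded every control, and the log2 fold change was 0.79 ± 0.086 (SE, limma adjusted p = 0.000955). CDKN1A encodes p21, an inhibitor of cyclin-dependent kinases (GRCh38 chromosome 6, 36676460 to 36687339, plus strand). It was measured at 46.1, 40.9, 45.7 and 43.7 TPM in the controls and 67.9, 66.4, 62.3 and 62.4 TPM in set 3, again with no overlap and with little spread in either group (log2 fold change 0.55 ± 0.046, adjusted p = 0.000218). LINC01411, a long noncoding RNA on chromosome 5, had the largest change of the stable genes. Its levels were low, 2.50, 3.00, 3.02 and 4.46 TPM in the controls and 6.75, 6.73, 7.62 and 7.44 TPM in set 3, and control replicate 4 was the control closest to set 3 (log2 fold change 0.96 ± 0.12, adjusted p = 0.00243).

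Cell surface and secreted proteins were another group among the stable genes that rose, put together after their values were seen. CD44, the hyaluronan receptor (GRCh38 chromosome 11, 35138870 to 35232402, plus strand), was measured at 2.78, 2.58, 2.87 and 3.13 TPM in the controls and 5.77, 5.78, 5.33 and 5.23 TPM in set 3. The lowest set 3 value lay well above the highest control (log2 fold change 0.77 ± 0.075, adjusted p = 0.00065). BST2, which encodes tetherin, a membrane protein that holds budding virus particles, was at 14.3, 15.2, 14.4 and 19.3 TPM in the controls and 21.1, 23.5, 26.7 and 25.2 TPM in set 3. Its control replicate 4 lay apart from the other controls and close to set 3 replicate 1 (log2 fold change 0.58 ± 0.092, adjusted p = 0.00711). The orphan receptor gene GPRC5A, induced by retinoic acid, was at 10.4, 8.02, 9.17 and 10.6 TPM in the controls and 14.4, 14.2, 13.8 and 14.8 TPM in set 3 (log2 fold change 0.54 ± 0.082, adjusted p = 0.00605). TFPI, an inhibitor of the tissue factor coagulation pathway, IL17RB, a receptor subunit for the cytokine IL-25, and ANXA1, a calcium-dependent phospholipid-binding protein, had log2 fold changes of 0.68, 0.52 and 0.59.

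Other stable increases concerned protein quality control, acidification and metabolism. HSPB8, a small heat shock protein that acts with BAG3 in selective autophagy, was at 29.9, 28, 28.5 and 34.9 TPM in the controls and 44, 45.4, 47.2 and 49 TPM in set 3 (log2 fold change 0.60 ± 0.076, adjusted p = 0.00297). The set 3 values were all higher than the highest control, replicate 4. ATP6V1D, a rotor subunit of the cytosolic part of the vacuolar proton pump, was at 24.1, 28.8, 27.7 and 34.8 TPM in the controls and 40.0, 40.3, 44.6 and 45.2 TPM in set 3 (log2 fold change 0.55 ± 0.09, adjusted p = 0.00836). Here the controls spread over a wide range, and replicate 4 again lay nearest to set 3. CFAP70, a cilium-associated protein gene, PCBD2, which acts in tetrahydrobiopterin recycling, SDSL, a serine dehydratase-like gene, and the long noncoding RNA NBR2, beside BRCA1, changed by 0.60, 0.59, 0.48 and 0.50. NBR2 was not stable under all 4 scalings.

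Among the stable genes that fell, some act in gene expression and growth control. MED19, a subunit of the Mediator complex that links transcription factors to RNA polymerase II (GRCh38 chromosome 11, 57703714 to 57712323, minus strand), was at 39.6, 33.2, 37.3 and 31.8 TPM in the controls and 20.8, 22.7, 24.8 and 23.1 TPM in set 3. No set 3 library reached the lowest control (log2 fold change -0.61 ± 0.072, adjusted p = 0.00199). FAM120A, an RNA-binding protein gene, was at 69.2, 68.7, 70.5 and 66.5 TPM in the controls and 46.2, 49.4, 48.7 and 49.6 TPM in set 3. With controls within a few TPM of each other, it had the smallest adjusted p after HUWE1 among the named genes (log2 fold change -0.50 ± 0.038, adjusted p = 9.1e-05). PIM2, a serine/threonine kinase of the PIM family that promotes survival and translation, was at 25.1, 24.9, 24.7 and 24.2 TPM in the controls and 17.9, 16.9, 15.1 and 15.5 TPM in set 3, and its controls were nearly level (log2 fold change -0.57 ± 0.06, adjusted p = 0.0008).

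Metabolic and secretory pathway genes also fell. OGDH, the substrate-binding enzyme of the alpha-ketoglutarate dehydrogenase complex of the citric acid cycle (GRCh38 chromosome 7, 44606572 to 44709066, plus strand), was at 75.8, 70.7, 71 and 59.2 TPM in the controls and 44.7, 46.9, 40.8 and 43.9 TPM in set 3. All set 3 values were lower than control replicate 4, the lowest control (log2 fold change -0.64 ± 0.072, adjusted p = 0.00136). MLEC, a carbohydrate-binding protein of the endoplasmic reticulum, was at 156, 137, 152 and 115 TPM in the controls and 94.2, 93.9, 87.8 and 88.4 TPM in set 3 (log2 fold change -0.61 ± 0.086, adjusted p = 0.00459). SRPRA, a subunit of the receptor that docks the signal recognition particle, was at 85.3, 83.8, 84.9 and 80.6 TPM in the controls and 61.5, 63.9, 63.3 and 59.9 TPM in set 3 (log2 fold change -0.42 ± 0.043, adjusted p = 0.000705). In MLEC the controls ran over a wide range, whereas in SRPRA they were close together and both sets of values stood well apart. STBD1, which tethers glycogen to membranes, had a change of -0.57.

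Further stable decreases were in transport, adhesion and signalling genes. KIF3B, a motor subunit of the kinesin that carries cargo along cilia, was at 62.2, 53.2, 58 and 42.7 TPM in the controls and 36.1, 37.3, 31.3 and 33.6 TPM in set 3 (log2 fold change -0.62 ± 0.11, adjusted p = 0.012). SORL1, an endosomal sorting receptor, was at 8.14, 6.93, 7.21 and 6.08 TPM in the controls and 4.88, 4.90, 4.39 and 5.01 TPM in set 3 (log2 fold change -0.48 ± 0.074, adjusted p = 0.00681). In both genes control replicate 1 was the highest and replicate 4 the lowest control, and neither reached the set 3 range. GAS1, a Hedgehog co-receptor, C1R, a complement protease, CNTN1, a neural adhesion protein, and MRM1, a methyltransferase of mitochondrial ribosomal RNA, changed by -0.52, -0.52, -0.51 and -0.51. CNTN1 was not stable under all 4 scalings. FAM98A, C5orf30 and NBPF3 changed by -0.51, -0.49 and -0.48; NBPF3 belongs to a family of near-identical copies, so its value depends on how reads were assigned. Without control replicates 1 and 4, the 30 stable genes of the plot by library kept their call. That fit called 3226 genes and kept 1631 of the 1839 calls of the 12 libraries. Stable genes were chosen for keeping their call, so this is a description. Changes in that fit were, for example, 0.89 for KLF2, 0.81 for CD44, -0.68 for OGDH and -0.60 for MED19.

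Promoters of stable genes were read for short motifs, since these genes held their call in all 10 fits and MYC, a reported HUWE1 substrate, binds the E-box. RefSeq start sites (GRCh38.p14) were matched for 66 of the 81 higher and 48 of the 57 lower stable genes. Genes not found by symbol were matched through another symbol, which can reach a different gene. For SLC23A2 the start matched, on chromosome 5, is not its own, and that promoter held 0 E-boxes. The 250 bases before the start were searched on both strands. The E-box CACGTG, 6 letters that read the same on both strands, was in 5 of 66 higher (7.58%) and 7 of 48 lower (14.6%), beside 8.97% of the 11310 promoters matched to tested genes and 6.49% of all 27305 promoters. The share of the higher genes thus lay between these 2 backgrounds and that of the lower genes above both. The longer CLEAR-type E-box, which contains it, was in 0 of either group, in 0.672% of tested and in 0.33% of all promoters. The other motifs searched were the CRE (TGACGTCA), AP-1 (TGANTCA, where N is any base) and CCAAT, which was also counted in its reverse complement. CRE was in 4.55% of the higher and 0 of the lower promoters, beside 2.94% of tested and 1.77% of all promoters. AP-1 was in 1.52% and 0, beside 3.58% and 6.6%, and CCAAT in 30.3% and 37.5%, beside 35.3% and 33%. These counts are descriptions over few promoters. The stable genes with an E-box were TAF12, IL17RB, CTSF, CLUAP1 and ATP6V0D1 among the higher, and SRM, DCTN4, SORL1, KPNA3, APEX1, GTPBP6 and PRAF2 among the lower.

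Shown are 2 such promoters from each direction, chosen after the matches were seen, with E-boxes in capitals. Each is the 250 bases before the RefSeq start, 5′ to 3′ on the gene's strand: SRM, chr1:11060019-11060268, minus strand, and APEX1, chr14:20454976-20455225, plus strand, from genes that fell, and ATP6V0D1, chr16:67481158-67481407, minus strand, and CTSF, chr11:66568607-66568856, minus strand, from genes that rose.
SRM: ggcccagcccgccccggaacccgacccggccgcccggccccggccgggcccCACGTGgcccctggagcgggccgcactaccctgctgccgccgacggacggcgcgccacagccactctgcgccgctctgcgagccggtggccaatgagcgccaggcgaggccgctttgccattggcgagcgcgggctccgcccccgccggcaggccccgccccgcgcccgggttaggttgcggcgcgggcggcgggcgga
APEX1: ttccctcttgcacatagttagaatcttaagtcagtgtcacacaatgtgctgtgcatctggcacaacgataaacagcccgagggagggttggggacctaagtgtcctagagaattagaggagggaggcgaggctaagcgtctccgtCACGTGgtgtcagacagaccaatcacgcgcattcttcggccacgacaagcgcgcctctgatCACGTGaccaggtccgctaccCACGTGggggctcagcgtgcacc
ATP6V0D1: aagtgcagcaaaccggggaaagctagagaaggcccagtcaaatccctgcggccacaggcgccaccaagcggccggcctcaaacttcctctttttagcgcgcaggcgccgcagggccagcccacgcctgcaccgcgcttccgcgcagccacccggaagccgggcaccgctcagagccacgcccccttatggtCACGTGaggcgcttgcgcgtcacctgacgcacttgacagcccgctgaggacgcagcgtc
CTSF: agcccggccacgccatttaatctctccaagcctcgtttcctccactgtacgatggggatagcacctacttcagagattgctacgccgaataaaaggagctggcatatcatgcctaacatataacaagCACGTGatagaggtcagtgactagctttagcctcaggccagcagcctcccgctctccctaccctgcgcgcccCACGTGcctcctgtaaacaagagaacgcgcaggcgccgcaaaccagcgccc
The E-box starts 199 bases before the start site in SRM and 59 bases before it in ATP6V0D1. APEX1 holds 3, at 105, 44 and 23 bases, and CTSF holds 2, at 123 and 51 bases. SRM encodes spermidine synthase and was at 210.3 ± 19.8 TPM in the controls and 157.9 ± 9.29 TPM in set 3 (SD, n = 4 each; log2 fold change -0.41, limma adjusted p = 0.00606). APEX1, the main endonuclease of base excision repair, was at 385, 389, 391 and 371 TPM in the controls and 326, 346, 327 and 332 TPM in set 3 (log2 fold change -0.21 ± 0.034, adjusted p = 0.00944). The same motif thus stood upstream of genes that fell and of genes that rose.

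Among called genes with a mean of at least 100 TPM in a group and no overlap between groups, the 8 largest decreases besides HUWE1 were DEPP1, DDIT4, ID1, ID3, H1F0, MLEC, ID2 and INSIG1. DDIT4, an inhibitor of mTORC1 whose protein is a reported HUWE1 substrate, was at 1925, 1394, 1565 and 1015 TPM in the controls and 852, 943, 746 and 774 TPM in set 3. Set 3 lay below all controls, but the controls themselves ranged widely, with replicate 1 highest and replicate 4 lowest (log2 fold change -0.80 ± 0.16, adjusted p = 0.0183). DEPP1, a FOXO-responsive gene, showed the same order of controls, at 138, 92.1, 105 and 66.4 TPM in the controls and 53.2, 61, 43.5 and 42.1 TPM in set 3 (log2 fold change -0.96 ± 0.20, adjusted p = 0.0181). H1F0, the linker histone H1.0 of non-dividing cells, was at 1406, 737, 895 and 599 TPM in the controls and 568, 563, 504 and 516 TPM in set 3, where control replicate 1 was far above all other libraries (log2 fold change -0.68 ± 0.19, adjusted p = 0.0421).

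The ID genes encode inhibitors of basic helix-loop-helix transcription factors and are classical targets of BMP signalling. ID1 was at 156, 101, 102 and 71.8 TPM in the controls and 67.3, 65.3, 54.8 and 56.1 TPM in set 3, ID3 had control values of 521, 326, 351 and 227 TPM against 221, 224, 191 and 190.5 TPM in set 3, and ID2 had 451, 308, 350.5 and 248 TPM against 234, 245, 236 and 216 TPM. In all 3 genes control replicate 1 was the highest and replicate 4 the lowest control, and set 3 lay just below replicate 4. The log2 fold changes were -0.77, -0.72 and -0.51 with limma adjusted p of 0.026, 0.0388 and 0.0417. INSIG1, a sterol sensor of the endoplasmic reticulum, had a different order, at 516, 719, 647 and 696 TPM in the controls and 460.4, 434, 495 and 486 TPM in set 3 with control replicate 1 lowest (log2 fold change -0.45 ± 0.091, adjusted p = 0.0179). Of the 8 abundant decreases only MLEC was stable: in the 8 libraries alone, DDIT4 had an adjusted p of 0.0508, DEPP1 of 0.0504, H1F0 of 0.0912 and ID1 of 0.0658. Without control replicates 1 and 4 their changes were -0.84, -0.98, -0.60 and -0.74, and all 4 were called. That fit kept 1631 of all 1839 calls.

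**Figure D3:**
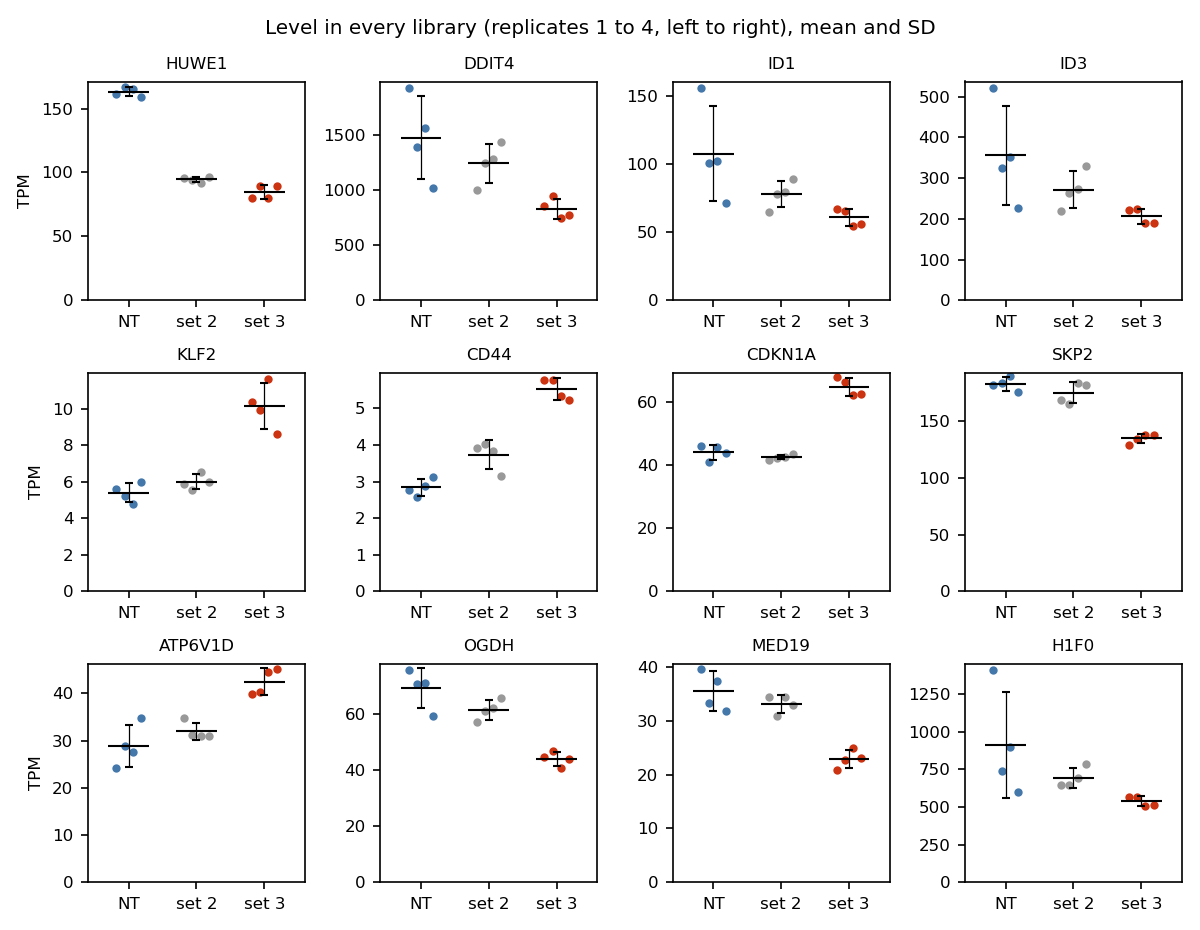
TPM of 12 genes in every library of the non-targeting group (NT, blue), set 2 (grey) and set 3 (red), with the 4 replicates from left to right and the mean and SD in black. HUWE1, KLF2, CDKN1A and SKP2 separate with little spread, while in DDIT4, ID1, ID3 and H1F0 control replicate 1 is the highest control and replicate 4, the lowest, lies close to set 3.

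The 8 largest increases chosen in the same way were CALM2, EIF3E, CTNNAL1, BEX2, WDR34, EEF1A2, CIRBP and TMEM256. EIF3E, a subunit of the largest translation initiation factor, was at 227, 312, 319 and 383 TPM in the controls and 386, 386, 451 and 431 TPM in set 3 (log2 fold change 0.43 ± 0.12, adjusted p = 0.04), and the highest control, replicate 4, lay just below the lowest set 3 library. CALM2, which encodes a calmodulin, was at 116, 132, 126 and 159 TPM in the controls and 172, 165, 191 and 193 TPM in set 3 (log2 fold change 0.44 ± 0.086, adjusted p = 0.0158). EEF1A2, the tissue-restricted elongation factor, was at 127, 149, 135 and 161 TPM in the controls and 191, 183, 185 and 183 TPM in set 3 (log2 fold change 0.38 ± 0.072, adjusted p = 0.0146). In none of these 8 genes did the values overlap between groups, since the choice required it. CTNNAL1, BEX2, the dynein gene WDR34, the cold-inducible RNA-binding protein gene CIRBP and TMEM256 had changes of 0.39, 0.39, 0.39, 0.38 and 0.38. None of these 8 was stable, and each was called without control replicates 1 and 4, a fit that kept 1631 of all 1839 calls.

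Gene groups were described by how many of their tested members were called, beside the 11.6% of all genes, 7.45% higher and 4.15% lower, and the median of 0.01. The 44 lists cover the ubiquitin system, growth signalling, gene expression machinery, organelles, the cell cycle and the cytoskeleton. Counts per list moved with single libraries as the total did. Of all 15860 genes, 340 were called in the 8 libraries alone and 3226 without control replicates 1 and 4. Without set 3 replicate 3 the total was 162, and without control replicate 4 it was 5874. List counts of those fits are to be read beside these totals. Without set 3 replicate 3, 0 autophagy and 0 nucleolar genes were called, 2 V-ATPase subunits were higher, and 1 gene of the mTORC1 and FOXO list was lower. Without control replicate 4, 15 autophagy genes and 11 V-ATPase subunits were higher, and 31 nucleolar genes and 19 of the mTORC1 and FOXO list were lower.

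**Figure D4:**
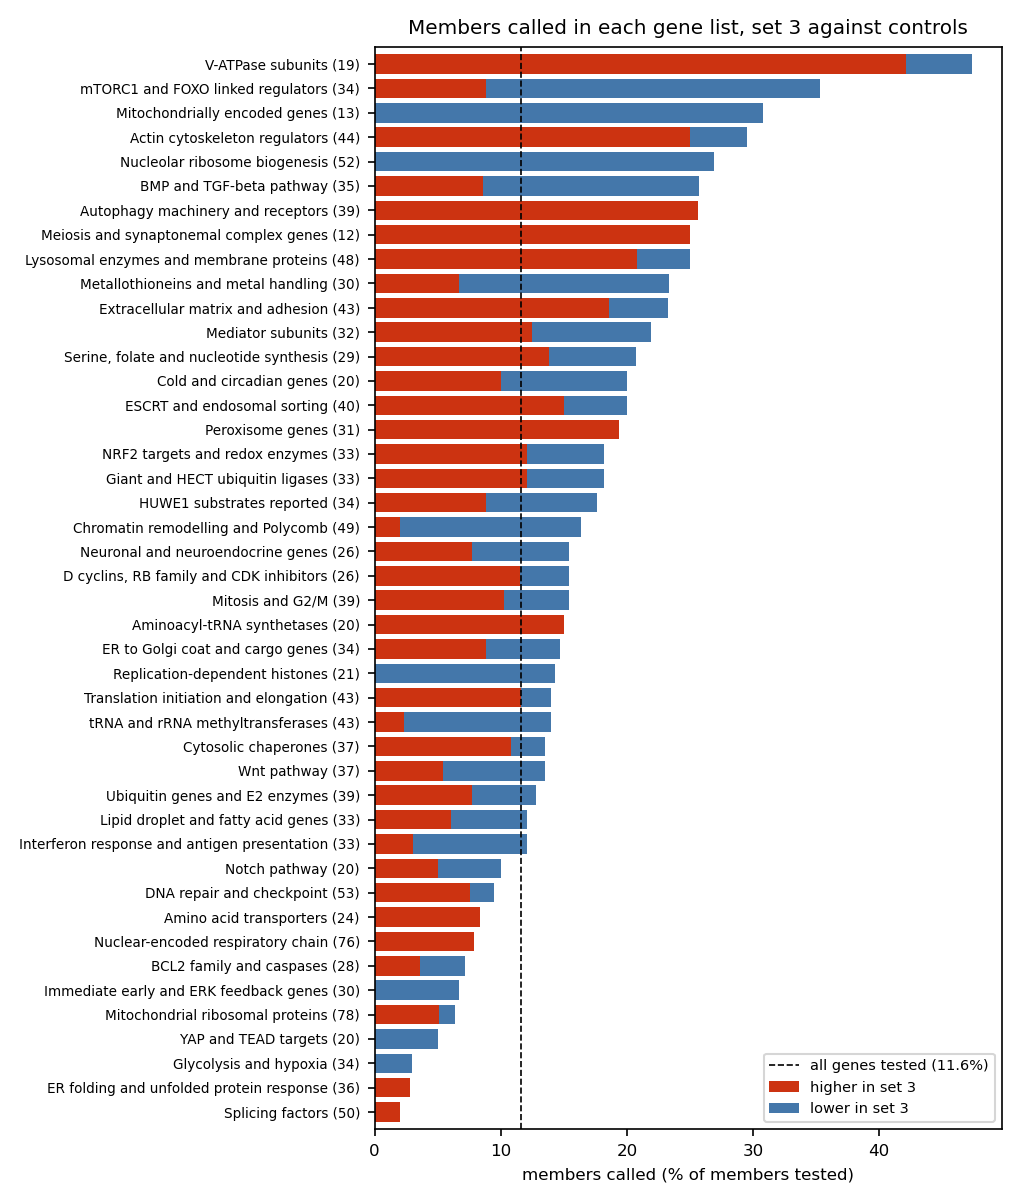
Bars give the percent of tested members (number in brackets) of each gene list that was called higher (red) or lower (blue) in set 3, and the dashed line marks the 11.6% of all genes tested. V-ATPase subunits, with 8 of 19 higher and 1 lower, and mTORC1 and FOXO linked regulators, with 3 of 34 higher and 9 lower, have the largest shares called, and splicing factors, with 1 of 50, the smallest.

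Transcripts of the ubiquitin system went in both directions. Of 34 reported HUWE1 substrates 3 rose and 3 fell, with a median of 0.00 whose sign depended on scaling. Those that rose were PCLAF, a PCNA-associated factor, BRCA1, a homologous recombination protein, and HIF1A, the hypoxia-responsive subunit of HIF-1. Their changes were 0.60, 0.20 and 0.21; those that fell were DDIT4, the Wnt adaptor gene DVL1 and the Rac activator gene TIAM1. PCLAF was at 41.2, 51.9, 50.0 and 71.2 TPM in the controls and 78.3, 73.5, 83.4 and 86.3 TPM in set 3, with control replicate 4 close to set 3 (log2 fold change 0.60 ± 0.12, adjusted p = 0.0181). Of 33 HECT and giant ubiquitin ligases 4 rose (NEDD4L, ITCH, TRIP12 and NEDD4) and 2 fell (HUWE1 and MYCBP2). NEDD4L, which acts on membrane channels, was stable, at 10.2, 9.88, 10.1 and 10.5 TPM in the controls and 13.3, 12, 13.1 and 12.2 TPM in set 3 (log2 fold change 0.29 ± 0.05, adjusted p = 0.0114). ITCH, a HECT ligase of the same subfamily, changed by 0.28, and MYCBP2, a giant ligase of neurons, by -0.27. Of 39 ubiquitin and E2 genes 3 rose and 2 fell, a share of 12.8%, near the 11.6% of all genes. UBE2O, a large hybrid E2 and E3 enzyme, was at 96.2, 88.4, 88 and 79.9 TPM in the controls and 73.8, 76.6, 67.8 and 68.5 TPM in set 3 (log2 fold change -0.29 ± 0.057, adjusted p = 0.0155), and UBE2D4, UBE2E1 and the activating enzyme gene UBA6 changed by -0.47, 0.26 and 0.18. In the 8 libraries alone 1 and 0 substrates, 2 and 1 of the ligases and 0 and 1 of the E2 list were called higher and lower.

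Growth signalling genes linked to mTORC1 and FOXO fell more often than they rose. Of 34 tested, 9 fell and 3 rose, and the median was -0.23. Besides DDIT4 and DEPP1, those that fell were TSC22D3, a glucocorticoid-induced leucine zipper gene, DEPTOR, an inhibitor of mTOR, the transcription factor genes KLF4, KLF9 and CITED2, TRIB2 and the arrestin gene ARRDC4. TSC22D3 was at 772, 870.3, 847 and 791 TPM in the controls and 632, 656, 647 and 678 TPM in set 3, stable and with no overlap (log2 fold change -0.33 ± 0.049, adjusted p = 0.00598). DEPTOR was at 10.4, 11.4, 11.4 and 9.96 TPM in the controls and 8.47, 8.47, 8.27 and 8.75 TPM in set 3 (log2 fold change -0.31 ± 0.063, adjusted p = 0.0179), its set 3 values below all controls. KLF6, which rose with KLF2 and the sestrin gene SESN1, was at 64.2, 61.2, 66 and 55.4 TPM in the controls and 76.1, 73.5, 75.4 and 73.9 TPM in set 3 (log2 fold change 0.28 ± 0.053, adjusted p = 0.015). Without control replicates 1 and 4 the list had 3 higher and 13 lower, and in the 8 libraries alone 2 higher and 2 lower.

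In the BMP and TGF-beta pathway 2 ligand genes and a receptor gene rose, and 6 genes known as targets or feedback inhibitors fell. Of 35 members 3 rose and 6 fell, with a median of -0.05. INHBA, the subunit of activin A, was at 1.70, 1.66, 2.14 and 2.22 TPM in the controls and 4.08, 4.69, 4.54 and 4.24 TPM in set 3. Its set 3 levels were all above the highest control, and it was stable, although low (log2 fold change 0.88 ± 0.079, adjusted p = 0.000322). BMP2, a ligand, was at 24, 22.6, 21.1 and 21.2 TPM in the controls and 26.7, 24.8, 26.5 and 27.2 TPM in set 3 (log2 fold change 0.23 ± 0.048, adjusted p = 0.0181), and the receptor gene ACVR1 was the third to rise. Those that fell were ID1, ID2, ID3 and ID4, the pseudoreceptor gene BAMBI and the inhibitory SMAD gene SMAD6. Other ligand genes, among them BMP4, BMP7, TGFB1 and TGFB2, and the feedback genes SMAD7 and SKIL did not pass the test. ID4 was at 243, 215, 234 and 194 TPM in the controls and 189, 186, 176 and 174 TPM in set 3, with control replicate 4 next to set 3 (log2 fold change -0.29 ± 0.069, adjusted p = 0.029). Without control replicates 1 and 4 there were 4 higher and 9 lower, and in the 8 libraries alone 1, INHBA, and 0.

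A few subunits of the transcription machinery and of chromatin complexes changed. Of 32 Mediator subunits 4 rose and 3 fell, a share of 21.9%. Besides MED19, MED10 of the middle module fell, at 76.3, 66, 68.4 and 70.4 TPM in the controls and 59.6, 58.5, 59.8 and 60.8 TPM in set 3 (log2 fold change -0.23 ± 0.043, adjusted p = 0.0138), and MED26 was the third; MED28 and MED31 rose by 0.18 and 0.15, with MED6 and MED14. Of 49 chromatin remodelling and Polycomb genes 1 rose and 7 fell, with a median of 0.00 that changed sign with scaling. HDAC3, the deacetylase of the NCoR complex, was at 106, 106, 107 and 102 TPM in the controls and 83.8, 88.6, 82.6 and 83.6 TPM in set 3, stable and with no overlap (log2 fold change -0.31 ± 0.038, adjusted p = 0.00258). The Polycomb genes PHC1, CBX2 and CBX8, the NuRD genes CHD3 and MTA2 and the methyltransferase gene KMT2B were the others that fell, with PHC1 at -0.17 and CHD3 at -0.21, and SMARCD2 rose by 0.21. In the 8 libraries alone 0 and 1 Mediator subunits and 0 and 1 chromatin genes were called.

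Nucleolar genes of ribosome biogenesis fell where they were called. Of 52 tested, 14 fell and 0 rose, the median was -0.15, and the values of 10 of the 14 did not overlap between groups. POLR1C, a subunit shared by RNA polymerases I and III, was at 34.7, 35.9, 34.8 and 33.5 TPM in the controls and 29.8, 31.3, 29.9 and 29.8 TPM in set 3, a small change with tight groups (log2 fold change -0.20 ± 0.038, adjusted p = 0.0158). The helicase gene DHX37 was at 48.2, 34.4, 37.8 and 29.4 TPM in the controls and 25.2, 27, 24.7 and 24.3 TPM in set 3 (log2 fold change -0.53 ± 0.11, adjusted p = 0.0192), with control replicate 1 highest and replicate 4 next to set 3. NOP16, a large subunit assembly gene, was at 43.6, 39.3, 40.9 and 32.8 TPM in the controls and 29.2, 31.1, 26.1 and 26.6 TPM in set 3 (log2 fold change -0.45 ± 0.094, adjusted p = 0.0192), and the helicase gene DDX51 changed by -0.25. RRP1B, WDR3, RRP9, RRP12, NOL10, POLR1B, NAT10, NOP2, PPAN and RRS1 were the others. The count was 0 higher and 24 lower with median-of-ratios scaling, 1 and 22 without control replicates 1 and 4, but 0 and 2 in the 8 libraries alone. It was 1 and 31 without control replicate 4, and 0 genes were called without control replicate 3 or without set 3 replicate 3 or 4. Of 43 tRNA and rRNA methyltransferases 1 rose and 5 fell, with a median of -0.07. TRMT61A, which methylates adenine in tRNA, was at 74.5, 46.6, 49.7 and 33.7 TPM in the controls and 30.9, 31.7, 25 and 26.8 TPM in set 3 (log2 fold change -0.77 ± 0.18, adjusted p = 0.0263), and FTSJ1, a ribose methyltransferase, was at 67.6, 68, 66.1 and 61.7 TPM in the controls and 57.9, 58.3, 58.6 and 53.9 TPM in set 3 (log2 fold change -0.20 ± 0.045, adjusted p = 0.0226). The controls of TRMT61A spread over a wider range than the distance between the group means, whereas those of FTSJ1 were close together.

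Genes of the lysosome and of its proton pump rose more often than they fell. Of 19 V-ATPase subunits 8 rose and 1 fell, with a median of 0.16: ATP6V0D1, ATP6V1D, ATP6V0A2, ATP6V1A, ATP6V1G1, ATP6V1E1, ATP6AP2 and ATP6V1H rose and ATP6V0E2 fell. ATP6V0D1, a subunit of the membrane part that couples to the rotor, was at 14.7, 17, 14.7 and 17.8 TPM in the controls and 23.2, 21.3, 21.9 and 22.1 TPM in set 3, stable and without overlap (log2 fold change 0.44 ± 0.07, adjusted p = 0.00726). ATP6V0A2, an isoform of the proton path subunit found in the Golgi and endosomes, was at 8.86, 10.2, 9.72 and 12.1 TPM in the controls and 13.8, 12.8, 13.9 and 14.4 TPM in set 3 (log2 fold change 0.40 ± 0.09, adjusted p = 0.0234). ATP6V0E2, an accessory subunit, was at 51.9, 48.3, 48.6 and 50.8 TPM in the controls and 44.1, 45.8, 44.6 and 43.8 TPM in set 3 (log2 fold change -0.16 ± 0.036, adjusted p = 0.0238). Without control replicates 1 and 4 there were 7 higher and 0 lower, and in the 8 libraries alone 2 higher and 0 lower. Scaling moved the count to 5 higher and 1 lower by median of ratios and 4 and 1 without mitochondrially encoded genes.

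Of 48 lysosomal enzymes and membrane proteins 10 rose and 2 fell, with a median of 0.07. CTSF, a cysteine protease, was at 19.6, 19.3, 19.5 and 20.3 TPM in the controls and 25.5, 22.6, 24.9 and 23.3 TPM in set 3, stable (log2 fold change 0.28 ± 0.048, adjusted p = 0.0114). Its lowest set 3 library lay above its highest control. CD63, PSAP, NPC1, LAMP2, CTSB and LAPTM4B also rose. NAGLU, an enzyme of heparan sulphate breakdown, fell, at 40.2, 37.8, 38.1 and 38.4 TPM in the controls and 31.9, 32.7, 32.4 and 34.2 TPM in set 3 (log2 fold change -0.23 ± 0.038, adjusted p = 0.00909), as did the acid lipase gene LIPA. NAGLU was stable, but CTSF and NAGLU were not stable under all 4 scalings. The list had 12 higher and 2 lower without control replicates 1 and 4, 4 and 1 in the 8 libraries alone, 6 and 2 with median-of-ratios scaling, and 4 and 2 without mitochondrially encoded genes.

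Autophagy and endosomal sorting genes also rose more often than they fell. Of 39 autophagy genes 10 rose and 0 fell, with a median of 0.10, and the values of all 10 did not overlap between groups. ATG14, of the lipid kinase complex that starts autophagosome formation, was at 22.8, 24, 25.3 and 24.7 TPM in the controls and 29.8, 28.5, 31.7 and 31 TPM in set 3 (log2 fold change 0.31 ± 0.056, adjusted p = 0.0123), and PIK3C3, the kinase of that complex, changed by 0.30. OPTN, a receptor for ubiquitinated cargo, was at 24.8, 28.8, 27 and 32.4 TPM in the controls and 36.4, 34.7, 40.2 and 40.4 TPM in set 3 (log2 fold change 0.42 ± 0.081, adjusted p = 0.0157). ATG10, an E2-like enzyme, changed by 0.46, and ULK2, GABARAPL2, TAX1BP1, GABARAP, CALCOCO1 and NBR1 were the others. Of 40 ESCRT and endosomal sorting genes 6 rose and 2 fell, with a median of 0.10. The retromer genes VPS26A and VPS35, whose products return cargo from endosomes, were at 52.7, 51.1, 52.1 and 59.1 TPM in the controls and 68.2, 63.3, 72.9 and 69.6 TPM in set 3 (log2 fold change 0.34 ± 0.061, adjusted p = 0.0119) and 60.0, 63.6, 64.1 and 72.7 TPM in the controls and 81.2, 75.8, 87.6 and 81.9 TPM in set 3 (log2 fold change 0.32 ± 0.062, adjusted p = 0.0146). VPS26A was stable, but not under all 4 scalings. The ESCRT-III genes CHMP5, CHMP2B and CHMP3 and the ATPase gene VPS4B also rose. In the 8 libraries alone 2 and 0 autophagy genes and 3 and 0 sorting genes were called, against 11 and 0 and 9 and 2 without control replicates 1 and 4. Of 31 peroxisome genes 6 rose and 0 fell, and EHHADH, PEX11G, EPHX2 and PHYH were among those that rose. EHHADH, an enzyme of peroxisomal beta-oxidation, was at 8.16, 9.40, 9.18 and 10.2 TPM in the controls and 12, 11.9, 11.4 and 12.4 TPM in set 3 (log2 fold change 0.34 ± 0.072, adjusted p = 0.0194), with no overlap. The peroxisome count was 1 higher in the 8 libraries alone, 3 without mitochondrially encoded genes, 8 without control replicates 1 and 4, and 0 without control replicate 3 or set 3 replicate 3 or 4.

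Cytoskeleton and matrix genes rose more often than they fell. Of 44 actin cytoskeleton genes and regulators 11 rose and 2 fell, with a median of 0.10. LIMK1, the kinase that inhibits cofilin, was at 10.3, 11.3, 10.4 and 11.7 TPM in the controls and 14.3, 13.2, 13.6 and 14 TPM in set 3, stable though not under all 4 scalings (log2 fold change 0.31 ± 0.054, adjusted p = 0.0116). The tropomyosin gene TPM3 was at 54.6, 61, 58.5 and 64.3 TPM in the controls and 72.2, 69.5, 75.3 and 76 TPM in set 3 (log2 fold change 0.30 ± 0.059, adjusted p = 0.0162), and the Arp2/3 subunit gene ARPC3 changed by 0.23. CAPZA1, MYH9, CAPG, ARPC1B, CFL2, RHOA, ARPC5 and TPM4 also rose, and TPM2 (-0.25) and RHOU fell. Of 43 extracellular matrix and adhesion genes 8 rose and 2 fell, with a median of 0.03. The collagen VI gene COL6A2 was at 40.4, 47.1, 44.3 and 49.9 TPM in the controls and 58.7, 57.8, 60.7 and 59.4 TPM in set 3 (log2 fold change 0.38 ± 0.066, adjusted p = 0.0119). ADAMTS1, a matrix metalloprotease, fell, at 78.7, 77.9, 78.2 and 71.5 TPM in the controls and 56.6, 59.1, 57.3 and 57.3 TPM in set 3 (log2 fold change -0.40 ± 0.051, adjusted p = 0.00297). Both were stable, COL6A2 not under all 4 scalings, and control replicate 4 of ADAMTS1 lay apart from the other controls towards set 3. With CD44 and COL6A2, the integrin genes ITGAV (0.31) and ITGA6, COL6A1, GPC3, TIMP2 and TIMP3 rose, and SPARC fell. In the 8 libraries alone 6 and 1 matrix genes but only 2 and 0 of the actin list were called; without control replicates 1 and 4 the counts were 10 and 3, and 13 and 2.

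A few cell cycle regulators changed, in both directions. Of 26 genes of D cyclins, the RB family and CDK inhibitors 3 rose and 1 fell. SKP2, the F-box protein that directs degradation of the CDK inhibitor p27 (GRCh38 chromosome 5, 36151989 to 36184319, plus strand), was at 182, 184, 190.2 and 176 TPM in the controls and 129, 135, 138 and 138 TPM in set 3. Set 3 stood well below the controls, and SKP2 was stable under all 4 scalings (log2 fold change -0.44 ± 0.044, adjusted p = 0.000705). Besides CDKN1A, CCNE2, which encodes cyclin E2, and RBL1, the gene of p107, rose by 0.35 and 0.23. Of 39 mitosis genes 4 rose and 2 fell, with a median of 0.13. BIRC5, which encodes survivin, was at 221, 216, 219 and 216 TPM in the controls and 187, 187, 198 and 193 TPM in set 3 (log2 fold change -0.19 ± 0.036, adjusted p = 0.0146), and the mitotic kinase gene PLK1 changed by -0.18. CCNB2 and CDK1, the mitotic cyclin and its kinase, changed by 0.39 and 0.31, with HMMR and TTK the others that rose. The values of only 1 of the 4 mitosis genes that rose did not overlap between groups. Of 53 DNA repair genes 4 rose, BRCA1, XRCC4, MRE11 and XRCC5, and 1, APEX1, fell. The share called was 9.43% for DNA repair, below the 11.6% of all genes, and 15.4% for each of the other 2 lists. BRCA1 was at 67.4, 65, 71.3 and 69 TPM in the controls and 77.1, 77.4, 80.7 and 78.3 TPM in set 3 (log2 fold change 0.20 ± 0.04, adjusted p = 0.0176). In the 8 libraries alone 0 mitosis genes were higher and 1 lower, and 1 DNA repair gene was higher and 1 lower. Without control replicates 1 and 4 the counts were 7 and 2 for mitosis and 12 and 1 for DNA repair. That fit called 3226 of all 15860 genes. Without control replicate 1 alone 0 and 2 mitosis genes were called.

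Metal handling, mitochondrial and histone transcripts were mostly lower where called in the fit of 12 libraries. In the 8 libraries alone 1 metal handling gene was higher and 0 were lower, and 0 mitochondrially encoded and 0 histone genes were called. Of 30 metallothionein and metal handling genes 2 rose and 5 fell. UROD, an enzyme of haem synthesis, rose, at 76.7, 79, 76.3 and 79.4 TPM in the controls and 97.3, 98.5, 93 and 93.7 TPM in set 3, stable under all 4 scalings (log2 fold change 0.29 ± 0.034, adjusted p = 0.00181). MT1X, a metallothionein, was at 62.9, 38.9, 43.7 and 43.5 TPM in the controls and 33.1, 32.8, 34.2 and 34 TPM in set 3, with control replicate 1 high (log2 fold change -0.46 ± 0.13, adjusted p = 0.0394). FTL, the ferritin light chain, whose family has many pseudogene copies, changed by -0.18. Of 13 mitochondrially encoded genes 0 rose and 4 fell, with a median of -0.21: MT-ATP6, MT-ND2, MT-CO3 and MT-ND4L, at -0.26, -0.37, -0.18 and -0.30. MT-ND2 was at 16376, 15664, 15683 and 11770.3 TPM in the controls and 12162, 11785, 11802 and 9934 TPM in set 3; control replicate 4 lay within the set 3 range. Of 21 replication-dependent histone genes 0 rose and 3 fell, with a median of -0.41, which was -0.26 without control replicates 1 and 4. HIST1H2BK was at 105, 49, 62.7 and 47.9 TPM in the controls and 36.9, 36.5, 38.9 and 29.9 TPM in set 3, with control replicate 1 far above the rest (log2 fold change -0.81 ± 0.21, adjusted p = 0.0329), and HIST1H2BD and HIST1H4J changed by -0.85 and -0.73. Most histone transcripts lack a poly(A) tail and their genes are close copies, so these values depend on the library and on read assignment.

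Set 3 was then set against set 2, the other HUWE1 siRNA group of the same table, in which HUWE1 was at 94.6 ± 2.26 TPM (SD, n = 4). The difference in HUWE1 between the sets was -0.16 ± 0.045 on the log2 scale and did not pass the test over all genes (limma adjusted p = 0.134). Limma called 82 of 15860 genes (0.517%) between the sets, 49 higher and 33 lower in set 3. The controls enter this contrast only through the estimate of the spread, and with the 2 sets fitted alone 328 genes were called. The count was 20 to 68 with 1 library of either set left out, the lowest without set 3 replicate 3, 42 with no filter on low genes, and 17 with the replicate number as a block. Against the controls, which both sets share, 2 genes (0.0126%) were called in set 2. Of the 81 stable higher genes 21, and of the 56 stable lower genes other than HUWE1 24, were called between the sets, each with the larger change in set 3. In set 2 against the shared controls, 78 of the 81 and 50 of the 56 changed in the same direction as in set 3. The median changes of the 81 and of the 56 there were 0.14 and -0.10, and 0 of them were called in set 2. These stable genes were chosen on the set 3 libraries and the controls, and the changes of both sets use those same controls. Agreement in direction can therefore come from the controls alone, and its share over all genes was not computed. The counts are a description.

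CDKN1A and KLF2 were among the genes with the largest differences between the sets. CDKN1A was 0.59 ± 0.046 higher in set 3 than in set 2 (SE; adjusted p = 0.00024), with set 2 libraries at 41.7, 42.3, 42.7 and 43.5 TPM, level with the controls. KLF2 differed by 0.67 (adjusted p = 0.00633), with set 2 at 5.86, 5.58, 6.56 and 6.02 TPM. INHBA differed by 0.65 (adjusted p = 0.00432), and LINC01411 by 0.67 (adjusted p = 0.0323). In set 2 against the controls these 2 genes had log2 fold changes of 0.24 and 0.28. In CDKN1A and KLF2 every set 3 library was above every library of set 2.

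In the other direction, FAM120A was lower in set 3 than in set 2, with a log2 difference of -0.46 (adjusted p = 0.00024), with set 2 at 67.5, 64.2, 68 and 67.7 TPM. SRPRA differed by -0.50 (adjusted p = 0.000279), PIM2 by -0.50 (adjusted p = 0.00429), MED19 by -0.52 (adjusted p = 0.0086) and OGDH by -0.47 (adjusted p = 0.0158). SKP2 differed by -0.37 (adjusted p = 0.00429), with set 2 at 169, 166, 184 and 182 TPM. The noncoding RNA LINC01786 was at 18.4, 17.6, 16.3 and 19.2 TPM in the controls and 12.7, 14.2, 10.3 and 13.4 TPM in set 3, against 18.7, 20.2, 18.2 and 18 TPM in set 2 (difference -0.54, adjusted p = 0.0167). Set 2 thus stayed at or near the control level in SKP2, SRPRA and FAM120A, where set 3 was lower in all 4 libraries.

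Set 1 has its own controls and was deposited in a separately normalized table, so its values are placed beside those of set 3 without a test between them. Of the 15296 genes tested in both tables, set 1 called 31.2%, 12.8% higher and 18.4% lower. Of the 80 stable higher genes of set 3 that were tested in set 1, 31 were called higher there and 7 lower. Of the 56 stable lower genes, 34 were called lower in set 1 and 1 higher. The median change of the stable higher genes was 0.10 in set 1 and 0.38 in set 3, and that of the stable lower genes -0.18 and -0.39.

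Some genes moved alike in sets 1 and 3. MED19 changed by -0.76 in set 1 (adjusted p = 1.35e-05) beside -0.61 in set 3, and SKP2 by -0.45 (adjusted p = 8.94e-05) beside -0.44. MRM1 changed by -0.54 and -0.51, OGDH by -0.23 and -0.64, and ATP6V0D1 by 0.38 and 0.44, each called in both. Others did not pass the test in set 1, among them CDKN1A at 0.04, KLF2 at -0.08, CD44 at -0.15 and PIM2 at -0.06. A few were called in opposite directions. GPRC5A was at 13.1, 12.3, 12.9 and 12 TPM in the set 1 controls and at 9.73, 9.95, 9.89 and 8.63 TPM in its HUWE1 libraries, a change of -0.37 (adjusted p = 0.000895), beside 0.54 in set 3. LINC01411 changed by -0.39 in set 1 and 0.96 in set 3, and HSPB8 by -0.20 and 0.60.

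**Figure D5:**
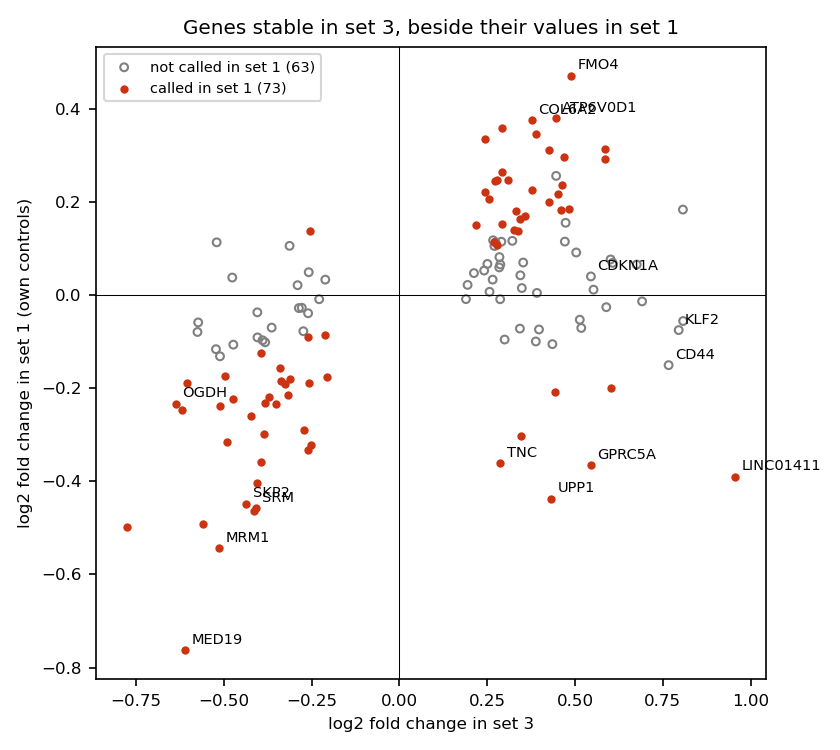
Log2 fold changes of 136 stable genes of set 3 other than HUWE1, with set 3 against its controls on the x axis and set 1 against its own controls on the y axis; filled points were called in set 1 (73) and open points were not (63). MED19, MRM1, SKP2 and SRM lie low in both, while GPRC5A, LINC01411, UPP1 and TNC lie above zero in set 3 and below it in set 1.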

How the data were processed

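Values were deposited as TPM, an abundance scaled for transcript length and library total, in a table for set 1 and another for sets 2 and 3 with their 4 non-targeting libraries. Per the submitters' processing notes the build was hg38. Aligner, counter, annotation and strand setting: not given in the sources used here. All columns were mapped to samples by their titles, and depth is unknown.

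From the deposited TPM, log2(TPM + 1) was computed for genes with TPM of 1 or more in at least 4 of 12 libraries and fitted with limma 3.58.1 in R 4.3.3 (variance trend, 1 model of set 2, set 3 and controls), with Benjamini-Hochberg adjusted p under 0.05 as the threshold. Set 1 was fitted on its own table. For HUWE1 an exact permutation test (two-sided) was added. Nothing shows that the 4 libraries of a group came from separate cultures beyond the design text's words, so p-values measure the spread between these libraries. Gene positions and types come from GENCODE release 29 and promoters from RefSeq; 15524 of the genes tested were found in GENCODE. Of 1620 entries in 44 gene lists, 1610 were found in the table, 19 of them under another symbol. The procedure was tested on simulated data.

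The genes named are HUWE1, the largest 15 increases and 15 decreases among stable genes whose mean reached 5 TPM in either group, the 8 largest of each among called genes of 100 TPM or more whose values do not overlap, up to 5 each way called between sets 3 and 2, and up to 4 called members of a list with the smallest p, clone-type names passed over. Further called members of some lists, and the genes with an E-box, are named beside these; some genes that the rule took are not reported here. Members and lists were chosen with earlier results of these data known.

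The alternatives tried were 0.1 as pseudocount, every gene or only genes of mean 5 TPM and above, scaling by median of ratios, by quantiles or without mitochondrially encoded genes, no variance trend, robust variance, a replicate block, only the 2 groups compared, leaving out each library, leaving out control replicates 1 and 4, and a log2 fold change of 0.25 or more for stable genes. The requirement that a gene be stable under all 4 scalings together was chosen after seeing the data. Replicate numbers were checked for pairing. Figures were drawn with matplotlib 3.10.9 in Python 3.11.15.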

Additional observations from a re-analysis of the deposited data

Results flagged for a closer look

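In 242 groups of 4 values, those of 121 reported genes in the controls and in set 3, 11 held a library far from the other 3 by Dixon's criterion (the gap to the nearest library over the range, at the 95% level), where chance alone marks about 1 group in 20. The controls gave 3 of these. Control replicate 4 was at 19.3 TPM in BST2 (others 14.3 to 15.2), 71.5 TPM in ADAMTS1 (77.9 to 78.7) and 11770.3 TPM in MT-ND2 (15664 to 16376), each time towards set 3. In set 3 there were 8. Replicate 4 was at 176.8 TPM in BEX2, 53.9 TPM in FTSJ1, 8959 TPM in MT-ATP6 and 9934 TPM in MT-ND2, replicate 3 at 26.4 TPM in FAM98A and 14 TPM in PEX11G, and replicate 2 at 31.3 TPM in POLR1C and 44.1 TPM in RBL1. In BEX2, FTSJ1, MT-ATP6, MT-ND2 and FAM98A the library lay farther from the controls than the rest of set 3, and in POLR1C, RBL1 and PEX11G nearer to them.

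The response differed between sets 3 and 2 in 22 of the 121 reported genes by the limma test of set 3 against set 2 over all genes. Of all genes tested 0.517% were called in that test. The reported genes were chosen mostly for changes in set 3, and some for a call in this same test. The count of 22 is therefore a description. Set 3 was higher in LINC01411 by 0.67 on the log2 scale, KLF2 by 0.67, INHBA by 0.65, CDKN1A by 0.59, HSPB8 by 0.56, CD44 by 0.47, GPRC5A by 0.47, LIMK1 by 0.40 and BMP2 by 0.26. The difference of set 3 minus set 2 was -0.54 in LINC01786, -0.52 in MED19, -0.50 in SRPRA, -0.50 in PIM2, -0.49 in INSIG1, -0.47 in OGDH, -0.47 in MLEC, -0.46 in FAM120A, -0.38 in SORL1, -0.38 in ADAMTS1, -0.37 in SKP2, -0.36 in FAM98A and -0.22 in HDAC3. The receptor, ligand and regulator genes KLF2, INHBA, CDKN1A, CD44 and GPRC5A were thus higher than in set 2, and MED19, OGDH and SKP2 lower.

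In 7 of the 121 reported genes, every HUWE1 library of set 1 lay on one side of its controls. Every library of set 3 lay on the opposite side of its own. The share over all genes was not computed. Many of the reported genes were chosen because their set 3 values do not overlap the controls. Set 1 changes were -0.39 in LINC01411, -0.37 in GPRC5A, -0.27 in CCNE2, -0.20 in HSPB8 and -0.17 in CTNNAL1, which rose in set 3, and 0.11 in GAS1 and 0.091 in MT-ATP6, which fell. The difference between the sets was not tested, since the tables were normalized separately.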

How the results depend on the processing

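The fall of HUWE1 was called under all 19 alternatives run, between -0.97 and -0.91. The 1839 calls of set 3 against the controls became 698 with no filter, 340 with only the 2 groups compared and 3226 without control replicates 1 and 4. Leaving out 1 library gave 162 to 5874, with 744, 396, 255 and 5874 without control replicates 1 to 4 and 532, 1268, 162 and 164 without set 3 replicates 1 to 4. The other pseudocount, filter, scalings and variance settings gave 1490 to 2015. The 82 calls of set 3 against set 2 became 42 with no filter, 328 with only the 2 groups compared and 20 to 68 with 1 library left out. Stable genes numbered 58 with no filter, where 29112 genes were tested, 255 at a mean TPM of 5 or more, where 11849 were, and 127 to 180 under the other planned settings. With the replicate number as a block, the calls were 693 against the controls and 17 against set 2. The numbers did not pair the samples: deviations of libraries with the same number correlated at 0.20, 0.01, -0.03 and 0.41, and only control replicate 4 correlated best with its own number. Under the block all 81 higher and all 56 lower stable genes other than HUWE1 were called. Of the 189 genes besides HUWE1 that the naming rule took, 139 lost their call under some alternative, 50 were called in every one and 0 changed direction; the cause was not tested for any of these changes. Depth is unknown, so the counting error of low genes such as LINC01411 and INHBA cannot be given.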

Other observations

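Several gene groups lay below or near the background of 11.6% called. Of 34 glycolysis and hypoxia genes 0 rose and 1, the glucose transporter gene SLC2A3, fell. Of 36 genes of endoplasmic reticulum folding and the unfolded protein response 1, ATF6, rose and 0 fell, and of 50 splicing factors only SRSF6 rose. Of 30 immediate early and ERK feedback genes 0 rose and 2, IER3 and SPRY2, fell, with a median of -0.15. The YAP and TEAD list of 20 had YAP1 itself as its single decrease, and the Notch list of 20 had JAG2 higher and HEY2 lower. Of 76 respiratory chain genes encoded in the nucleus 6 were higher (NDUFB3, ATP5PD, COX5B, NDUFB2, NDUFA13 and NDUFB11) and 0 lower, but 0 higher after median-of-ratios scaling, while mitochondrially encoded genes were lower. Amino acid transporters had 2 of 24 higher, among them SLC38A9, a lysosomal arginine sensor. Slightly above the background, translation factors had 5 of 43 higher and 1 lower and aminoacyl-tRNA synthetases 3 of 20 higher (AARS, QARS and RARS). These became 1 and 0 higher after median-of-ratios scaling, and 0 and 0 in the 8 libraries alone. Without control replicate 4, 17 translation factors and 10 synthetases were higher. In that fit, 9 of 34 glycolysis and hypoxia, 8 of 20 Notch and 12 of 20 YAP and TEAD genes were called. Of the 76 respiratory chain genes 37 were then higher, with 5874 of all 15860 genes called.

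A few stable genes lie side by side in the genome. Of the 136 with GENCODE coordinates, 3 pairs were less than 100000 bases apart, each with changes in the same direction. GABRB1, a GABA receptor subunit gene, and AC107398.3 lie 5516 bases apart on the plus strand of chromosome 4 and changed by -0.78 and -0.56. ZDHHC24 and the cathepsin gene CTSF lie 17225 bases apart on the minus strand of chromosome 11 and changed by 0.45 and 0.28. IL17RB and SELENOK lie 18610 bases apart on opposite strands of chromosome 3 and changed by 0.52 and 0.21. AC107398.3 is annotated as noncoding and lies downstream of GABRB1. HUWE1 was 1 of 7 stable genes on chromosome X.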
